A study of Rattus norvegicus with 24 samples.

Results

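Rats that had been growth restricted before birth and then ate a high-fat diet (RHFD) were compared with rats that had neither exposure (CND), by the transcript levels in their colonic epithelial cells. There were 3 RHFD samples on 6 arrays and 6 CND samples on 6 arrays, together 9 of the 20 samples and 12 of the 24 arrays of the series. Samples were chosen by the birth status and diet in the labels. Arrays with the same number in their titles (21B, 25B and 3A in RHFD) were averaged into 1 sample.

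All animals were Sprague Dawley rats aged 8 months. RHFD rats were born with intra-uterine growth retardation (IUGR) and received the high-fat diet (HFD), while CND rats were born as controls and received normal chow (ND). Each single exposure had a group of its own: CHFD, control birth with high-fat diet (5 samples), and RND, IUGR with chow (6 samples). Cells were taken from proximal and distal colon by incubation in a calcium-free buffer with EGTA and EDTA and by vortexing, and the labels name no sorting step. How the growth restriction was brought about, what the diet held and how long it lasted are not given in the labels. The labels also do not say that each sample is a separate animal, so p-values measure the spread between these samples, which may be partly technical.

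The colonic epithelium is a single cell layer of absorptive colonocytes, mucus-secreting goblet cells, hormone-secreting enteroendocrine cells and chemosensory tuft cells, renewed from the crypt base. Lymphocytes sit between its cells, and macrophages, dendritic cells and mast cells lie just beneath it, so cells released from colon by chelation can carry immune cells along. Dietary fat and the microbes of the gut lumen are both known to act on this layer, which absorbs water and salt and makes proteins that bind bacteria.

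The label of the cells was checked against 12 epithelial marker genes, none of which passed the test between RHFD and CND. Their differences ran from -0.17 to 0.31 on the log2 scale, and their summed intensity was 140421 to 151561 in the RHFD samples and 137334 to 153100 in the CND samples. Epcam, an adhesion protein of epithelial cells, had log2 levels of 13.93, 13.64 and 14.17 in RHFD samples 21B, 25B and 3A, against 13.63 to 14.02 in CND. Of the other cell types, 9 of 13 fibroblast markers on the array, among them the collagen genes Col1a1 and Col3a1, and 4 of 8 smooth muscle markers, among them Tagln and Cnn1, were not detected on any array of either group. The fibroblast marker Fbln1, a matrix protein gene, was detected on all arrays of both, with mean levels of 8.03 in RHFD and 8.52 in CND (adjusted p = 0.44), and the smooth muscle actin gene Actg2 on 2 of 6 RHFD and 1 of 6 CND arrays. Detection was alike in the groups, with 9003 to 9647 of 22523 probes detected per RHFD array and 8303 to 9731 per CND array. Levels below are background-corrected, quantile-normalized log2 intensities, and the level of one probe cannot be set against that of another.

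Of 10193 probes tested with limma, 95 passed an adjusted p of 0.05 (0.932% of those tested), 71 higher in RHFD (0.697%) and 24 lower (0.235%). The higher probes stand for 59 named genes, among them products secreted into the gut lumen, 5 listed T and NK cell genes and 7 listed macrophage and dendritic cell genes. The lower ones stand for 20 named genes, among them a water channel and genes for retinoid and drug metabolism. All 3 RHFD samples lay above all 6 CND samples for 69 of the 71 higher probes, and below them for 22 of the 24 lower probes. Over all probes tested, the groups did not overlap for 4.65%, with RHFD above for 2.90% and below for 1.75%. Changes over 2-fold made up 73 of the 95, 57 of them higher and 16 lower, while the median difference of all probes was -0.002. The 2 chips, each with 3 arrays of both groups, gave 74 and 23 calls when tested alone. All 48 genes described by the rule for named genes had the same direction on both. These genes were picked by their calls over both chips together. The same 3 RHFD samples are also on both chips, so this agreement is no independent repeat. The RHFD samples decided much of the count: 24 probes passed without RHFD 3A, 28 without RHFD 25B and 76 without RHFD 21B.

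**Figure D1:**
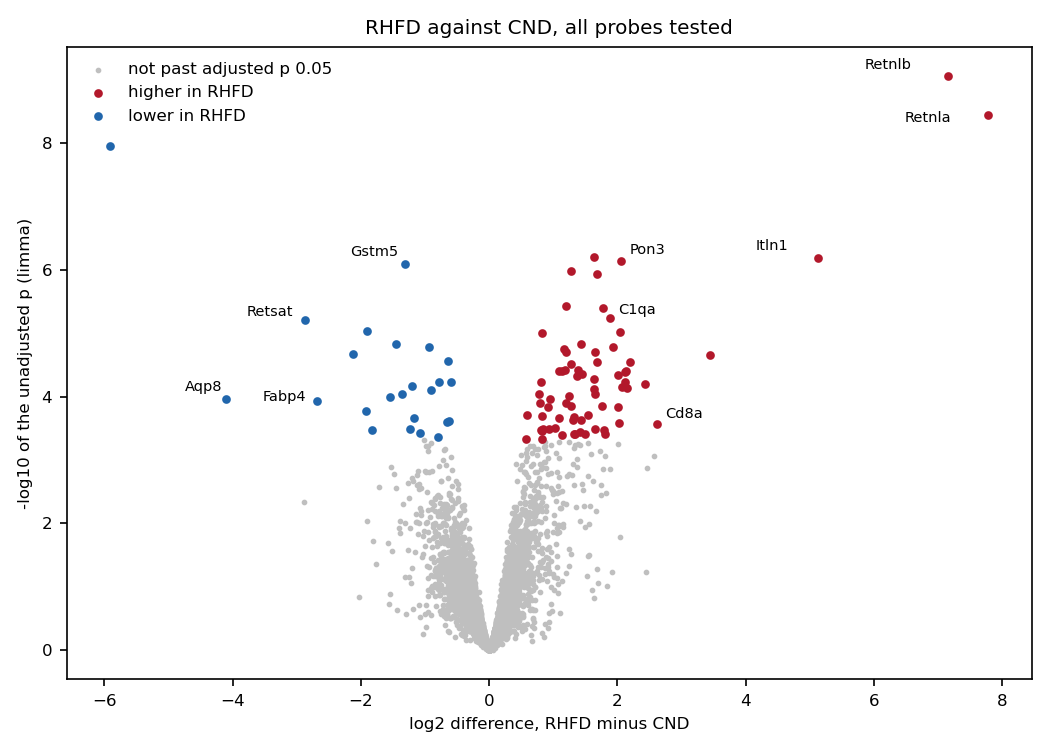
Each point is 1 of the 10193 probes, with the log2 difference RHFD minus CND on the horizontal axis and -log10 of the unadjusted limma p on the vertical axis. The 71 probes past the threshold and higher in RHFD are red and the 24 lower are blue, and the most distant points are Retnla and Retnlb on the right and an unnamed probe at -5.91 on the left.

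The 3 largest increases were in genes for secreted proteins. Which cells of these unsorted samples made them was not tested. Retnla and Retnlb encode resistin-like proteins, of which Retnlb is a goblet cell product that acts on gut bacteria. Retnla (GRCr8 chromosome 11, 65424685 to 65426484) had log2 levels of 12.99, 14.27 and 12.49 in RHFD samples 21B, 25B and 3A, against a lowest of 4.70, a median of 5.24 and a highest of 6.68 in CND. Every RHFD sample thus lay more than 5 log2 units above every CND sample, and the difference was 7.78, or 220-fold (95% interval 71.7 to 676, limma adjusted p = 1.88e-05). In CND, 5 of the 6 arrays detected Retnla. Retnlb (chromosome 11, 65446433 to 65448319) had levels of 11.38, 13.42 and 10.19 in the RHFD samples in the same order, against 4.30, 4.46 and 4.80 as the lowest, median and highest in CND. It was not well above background on any CND array and was at least 113-fold higher in RHFD (limma adjusted p = 8.89e-06). Such bounds set the CND level no lower than the dimmest detected probe of each array, and they hold no sampling error.

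Itln1 encodes intelectin, a goblet cell lectin that binds sugars of microbes. Its levels were 13.84, 14.41 and 13.64 in RHFD 21B, 25B and 3A, and in CND the lowest was 7.71, the median 8.23 and the highest 10.61. The groups were apart by 3 log2 units at their nearest samples, and the difference of 5.13 was 34.99-fold (12.5 to 98.2, limma adjusted p = 0.00118). Pon3, a lactonase also found on high-density lipoprotein, had levels of 11.82, 11.62 and 11.95 in RHFD, with 9.11, 9.79 and 10.51 as the lowest, median and highest in CND. It rose 4.17-fold (2.75 to 6.32, limma adjusted p = 0.00118), again without overlap. Within chip 1 and chip 2 the differences were 7.83 and 7.73 for Retnla, 5.20 and 5.05 for Itln1 and 2.13 and 1.99 for Pon3. These 4 genes passed without any single sample, and Itln1 missed the threshold on chip 2 alone (adjusted p = 0.0515). Without background correction the differences of Retnla and Retnlb were 6.28 and 5.12, and cross-hybridization between the probes of these related genes was not tested.

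The other products of goblet cells did not move as a group. Of 9 goblet cell markers tested, Retnlb and Itln1 rose and none fell, and the median difference was -0.31. Clca1, a secreted regulator of mucus, differed by 1.24 (adjusted p = 0.43), Tff3, a trefoil peptide of mucus, by 0.62 (adjusted p = 0.63), Agr2, a disulfide isomerase needed for mucin assembly, by -0.34 (adjusted p = 0.79) and Spink4 by -1.77 (adjusted p = 0.53), each over 3 RHFD and 6 CND samples in the limma fit. Of 17 genes of antimicrobial defence the same 2 rose, with a median of 0.04. Reg4 (2.04, adjusted p = 0.34), Reg3g, a lectin that kills Gram-positive bacteria (1.70, adjusted p = 0.66), and Slpi, a protease inhibitor (1.55, adjusted p = 0.48), were higher in the RHFD mean without passing the limma test.

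**Figure D2:**
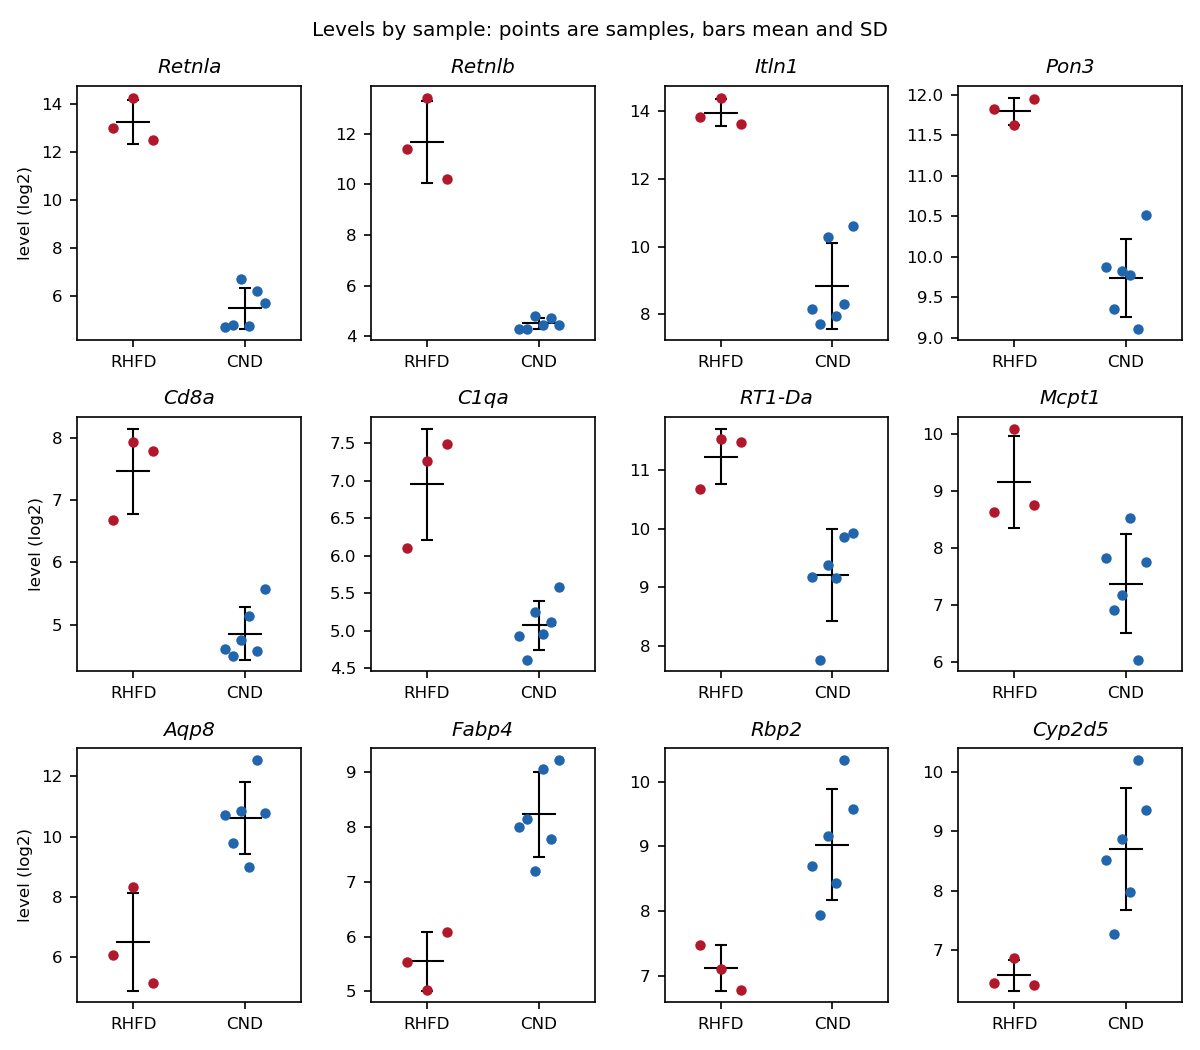
Log2 level of 12 genes in each sample, with RHFD (3 samples, red) left of CND (6 samples, blue) and bars for the mean and SD. Both groups separate fully in all panels, by the widest gap for Retnla, Retnlb and Itln1 and the narrowest for Mcpt1, where the lowest RHFD sample was 8.63 and the highest CND sample 8.53.

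Genes of T and natural killer cells were higher in RHFD. Of 17 tested markers, 5 rose and none fell, 16 had a positive difference, and the median was 1.50, against -0.002 for all probes. In 11 of the 17 all RHFD samples lay above all CND samples, which held for 2.90% of all probes. The summed intensity of the list was 3156, 3656 and 4072 in RHFD 21B, 25B and 3A, against 351 to 1334 in CND. In such bulk samples, more cells of a type and more RNA per cell cannot be told apart, and 4 listed markers, among them Cd4 and Cd5, were not detected in either group.

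Cd8a, the co-receptor of cytotoxic T cells, had levels of 6.68, 7.94 and 7.79 in the RHFD samples, against 4.49, 4.67 and 5.58 as the lowest, median and highest in CND. The groups were apart, and the difference of 2.61 was 6.12-fold (2.61 to 14.4, limma adjusted p = 0.0359), although only 2 of 6 CND arrays detected it. Cd7, a surface protein of T and natural killer cells, had 7.92, 8.24 and 8.28 in RHFD against 4.94, 5.98 and 6.96 in CND, an increase of 4.38-fold (2.44 to 7.85, limma adjusted p = 0.0118). Ptprcap, a partner of the lymphocyte phosphatase CD45, rose 4.02-fold (2.17 to 7.46, limma adjusted p = 0.0233). Klrd1, the CD94 chain of receptors on natural killer cells, rose 3.12-fold (1.94 to 5.03, limma adjusted p = 0.0159), with 2 of 6 CND arrays detecting it. Cd3g, a chain of the T cell receptor complex that was named after its value was seen, rose by 1.50 (limma adjusted p = 0.0434). Ccl5, a chemokine of cytotoxic lymphocytes, had 10.11, 10.56 and 9.77 in RHFD against 6.42 to 8.63 in CND without passing (2.47, limma adjusted p = 0.09).

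The T cell calls rested on few samples. All 5 missed the threshold without RHFD 3A (limma adjusted p = 0.0859 to 0.186) and 4 without RHFD 25B (0.0761 to 0.271), and without RHFD 21B only Klrd1 did (0.0811). Leaving out CND samples removed 1 to 3 of them (0.0502 to 0.0907), namely 14A, 18A, 20A and 36B for Cd8a, 14A for Ptprcap and all of these and 32B for Cd3g. Without background correction Cd8a differed by 1.29 (adjusted p = 0.193).

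Macrophage and dendritic cell genes were higher in RHFD as well. Of 10 tested markers 7 rose and none fell, all 10 had a positive difference, and the median was 1.69. The summed intensity was 6830, 8265 and 8670 in RHFD 21B, 25B and 3A, against 3448 to 6775 in CND, so that the groups did not overlap but nearly met. The 3 chains of complement C1q, which tags debris and microbes and is made by macrophages, rose alike: C1qa by 1.88, C1qb by 2.12 and C1qc by 2.12, with limma adjusted p of 0.00494, 0.0141 and 0.0118. C1qa and C1qc were detected on 5 of the 6 CND arrays. Without background correction the 3 chains differed by 0.88, 1.28 and 1.07 in the same order (limma adjusted p = 0.00898, 0.0204 and 0.0204). C1qb had levels of 7.38, 8.45 and 8.25 in the RHFD samples, against 5.23, 5.95 and 6.54 as the lowest, median and highest in CND (4.34-fold, 2.38 to 7.92, limma adjusted p = 0.0141). Aif1, an actin-binding protein of macrophages, rose 3.80-fold (2.32 to 6.22, limma adjusted p = 0.00847).

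Fcer1g, the signalling chain shared by several Fc receptors, had 8.88, 9.17 and 9.19 in RHFD against 6.71, 7.31 and 7.94 in CND. Its increase of 3.22-fold (2.26 to 4.58, limma adjusted p = 0.00131) passed in every alternative setting tried. Tyrobp, a related adaptor that was named after its value was seen, was not detected on any CND array and was at least 1.41-fold higher (limma adjusted p = 0.0141). Apoe, a lipid carrier that macrophages secrete, had 5.09, 7.21 and 6.82 in RHFD 21B, 25B and 3A, and 4.46, 4.72 and 4.85 as the lowest, median and highest in CND, where 1 of 6 arrays detected it. RHFD 21B lay close to the CND samples and the other pair far above them (3.22-fold, 2.05 to 5.05, limma adjusted p = 0.0105). Without background correction Apoe differed by 0.73 (limma adjusted p = 0.0248) in place of 1.69. Of the 7 genes, 6 missed the threshold without RHFD 3A (adjusted p = 0.057 to 0.113) and 5 without RHFD 25B (0.0514 to 0.12), all but Fcer1g and all but Fcer1g and C1qa in turn. Adgre1, Itgam, Cd163 and Mrc1, defining markers of tissue macrophages, were not detected in either group.

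**Figure D3:**
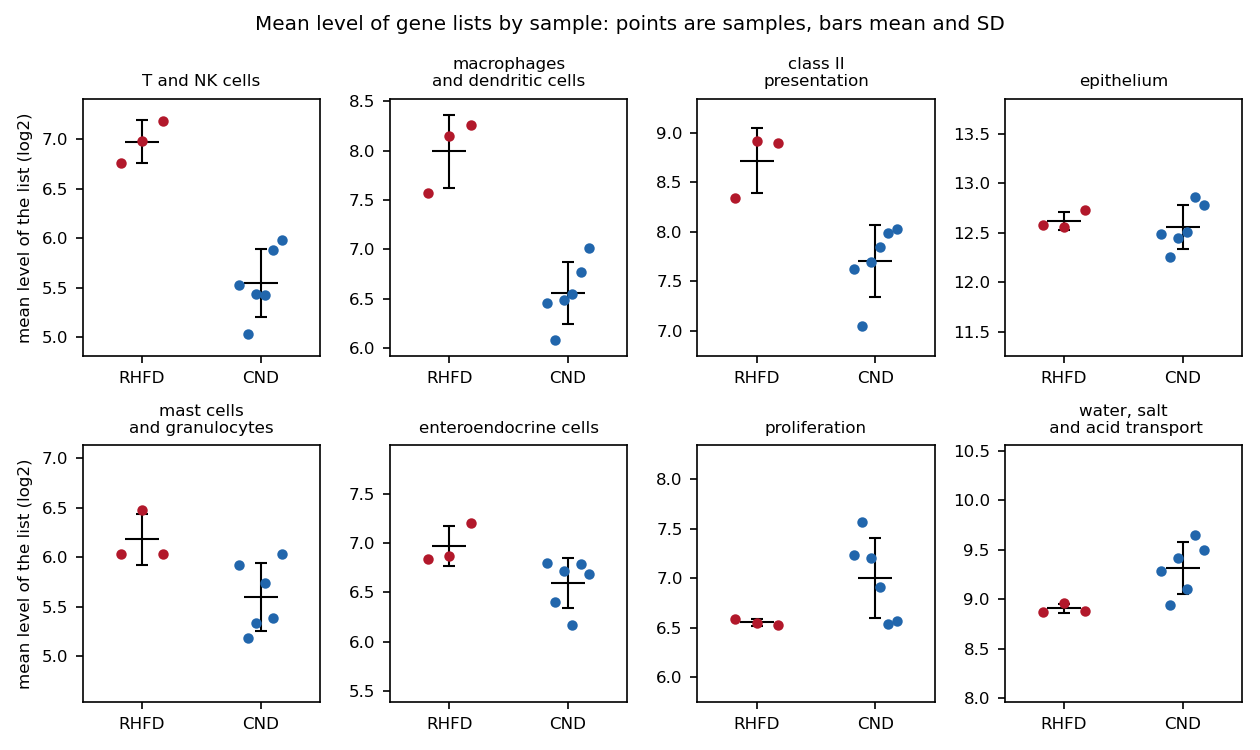
Mean log2 level of the tested members of 8 gene lists in each sample, with RHFD (3 samples, red) left of CND (6 samples, blue) and bars for the mean and SD. RHFD lies above CND without overlap for T and NK cells, macrophages and dendritic cells and class II presentation. It does so narrowly for enteroendocrine cells (6.84 to 7.20 against 6.17 to 6.79). The epithelial list is level at 12.55 to 12.73 in RHFD and 12.25 to 12.86 in CND. Some lists not drawn also separated, such as goblet cells above CND (11.27 to 11.93 against 10.15 to 10.69) and retinoid metabolism below it (6.99 to 7.14 against 7.22 to 7.70).

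Class II molecules present peptides taken up from outside the cell to CD4 T cells, and in gut they are made by macrophages, dendritic cells and B cells and, when induced, by the epithelium itself. Of 8 tested genes of this pathway 3 rose and none fell, with a median of 1.22. RT1-Da, the alpha chain of the rat DR molecule (chromosome 20, 4515393 to 4520387), had levels of 10.68, 11.53 and 11.48 in RHFD 21B, 25B and 3A, against 7.76, 9.28 and 9.92 as the lowest, median and highest in CND. The groups were apart, and the increase was 4.06-fold (2.10 to 7.85, limma adjusted p = 0.0351). RT1-Ba, the alpha chain of the second class II molecule, rose 4.02-fold (2.30 to 7.03, limma adjusted p = 0.0125), and Cd74, the invariant chain that guards the peptide groove, 3.49-fold (1.90 to 6.43, limma adjusted p = 0.0434). RT1-Db1, the beta chain that pairs with RT1-Da, was as far apart in its mean (2.01) with an adjusted p of 0.0544 in the limma fit. The loading factors RT1-DMa (-0.55) and RT1-DMb (0.64) and the protease gene Ctss (0.20) had adjusted p values of 0.56, 0.53 and 0.83.

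The summed levels of the macrophage and T cell lists were also higher in all 3 RHFD samples than in any CND sample, and their part in this result was not tested. All 3 missed the threshold without RHFD 3A (adjusted p = 0.105 to 0.201) or RHFD 25B (0.104 to 0.263). RT1-Da and Cd74 also missed it without CND 14A, 20A or 32B (0.0512 to 0.0867), and Cd74 without CND 18A (0.0788). Their increase was larger on chip 1 than on chip 2, at 2.58 and 1.46 for RT1-Da and 2.10 and 1.50 for Cd74. The RHFD samples are the same on both chips, but the CND samples are not. CND 14A, 18A and 20A are on chip 1, and 18A was the lowest CND sample for RT1-Da (7.76) and Cd74 (5.44). Chip, title letter and CND sample cannot be told apart here.

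Class II promoters share the Y box, whose core CTGATTGG, an inverted CCAAT sequence, is bound by the factor NF-Y and helps to set class II transcription. The promoters of RT1-Da, RT1-Ba and RT1-Db1 are printed because their levels stood highest among the class II differences. They are RefSeq sequences on GRCr8 from 250 bases before to 50 after the start, 5′ to 3′ on the strand of the gene, and capitals mark the Y box core, which was searched on both strands. RT1-Da lies at chr20:4515165-4515464 on the plus strand, RT1-Ba at chr20:4576807-4577106 on the plus strand and RT1-Db1 at chr20:4560113-4560412 on the minus strand.
RT1-Da: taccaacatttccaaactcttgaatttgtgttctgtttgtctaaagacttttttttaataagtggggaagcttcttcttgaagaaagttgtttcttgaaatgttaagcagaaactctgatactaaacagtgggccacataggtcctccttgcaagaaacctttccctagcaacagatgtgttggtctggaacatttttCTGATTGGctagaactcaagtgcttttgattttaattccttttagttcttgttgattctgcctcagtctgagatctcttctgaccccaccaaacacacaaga
RT1-Ba: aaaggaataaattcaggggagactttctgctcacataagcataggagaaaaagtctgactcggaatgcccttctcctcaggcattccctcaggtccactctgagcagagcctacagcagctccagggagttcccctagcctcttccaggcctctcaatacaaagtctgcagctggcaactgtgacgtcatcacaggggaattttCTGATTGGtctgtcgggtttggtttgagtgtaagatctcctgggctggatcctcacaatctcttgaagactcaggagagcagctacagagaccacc
RT1-Db1: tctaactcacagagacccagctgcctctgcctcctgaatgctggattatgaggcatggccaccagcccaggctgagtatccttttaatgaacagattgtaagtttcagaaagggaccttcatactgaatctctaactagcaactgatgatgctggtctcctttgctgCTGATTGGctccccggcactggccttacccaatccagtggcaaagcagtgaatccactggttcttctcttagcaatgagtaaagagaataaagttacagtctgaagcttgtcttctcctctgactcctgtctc
The core began 52, 46 and 83 bases before the start that these windows use. For RT1-Da that start is position 4515415, which lies inside the annotated extent of the gene given above. It was found in 3 of 5 class II promoters searched and in 3.5% of all 33469 promoters of this length. The windows of Cd74 and RT1-DMa did not hold these letters.

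The lists of mast cell and granulocyte, B cell and cytokine genes gave few calls. Of 7 mast cell and granulocyte markers 2 rose, with a median of 0.46: Mcpt1, a chymase of mucosal mast cells, had levels of 8.63, 10.10 and 8.75 in RHFD 21B, 25B and 3A, against 6.03, 7.47 and 8.53 as the lowest, median and highest in CND. RHFD 25B was the highest sample and the others lay just above the highest CND sample (3.46-fold, 1.90 to 6.29, limma adjusted p = 0.0409). Mcpt10, a related protease, rose 2.92-fold (1.79 to 4.77, limma adjusted p = 0.0299). Of 4 B cell markers Cd37, a tetraspanin of leukocytes, rose by 1.14 (limma adjusted p = 0.0439), while Ms4a1, which encodes CD20, differed by -0.02 and Cd79b by 0.12. Of 14 cytokine and inflammasome genes Il1b, the interleukin 1 beta gene, rose by 1.03 (limma adjusted p = 0.0408), and the median was 0.06. All 4 of these genes missed the threshold without RHFD 25B (adjusted p = 0.176 to 0.324) and without CND 18A (0.0673 to 0.0916), and each other sample ended at least 1 of the calls when left out. All 4 also missed it without background correction (limma adjusted p = 0.0501 to 0.133), where Cd37 differed by 0.43 and Il1b by 0.40.

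None of 21 interferon response genes passed, and their median was 0.19. Ubd, a ubiquitin-like protein induced by cytokines, had levels of 9.25, 9.33 and 8.90 in RHFD, all above the CND samples at 5.33 to 8.29, with a difference of 2.58 (limma adjusted p = 0.0673). Among 18 genes of class I presentation none passed either (median 0.16), and B2m, the light chain of class I molecules, differed by -0.14.

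Hormone-producing enteroendocrine cells were marked by 2 increases among 11 tested genes, with a median of 0.45. Nts encodes neurotensin, a gut peptide released by fat in the lumen. Its levels were 7.11, 5.33 and 5.85 in RHFD 21B, 25B and 3A, against 4.33 to 4.58 in CND, where no array detected it, and it was at least 2.37-fold higher (limma adjusted p = 0.00877). Fev, a transcription factor of serotonin-producing cells, had 5.55, 5.81 and 5.97 in RHFD against 4.49, 4.53 and 5.40 in CND, where 1 of 6 arrays detected it (2.14-fold, 1.51 to 3.04, limma adjusted p = 0.0315). Gcg, the source of glucagon-like peptides, had a difference of -1.19 (adjusted p = 0.12), and Chga, a granule protein of all these cells, 0.61 (adjusted p = 0.66). Fev missed the threshold in every leave-out but that of CND 38B (adjusted p = 0.0534 to 0.186), and Nts in none.

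All 8 tuft cell markers had a positive difference, with a median of 0.79, and none passed. Plcg2, a phospholipase of their signalling cascade, had 7.91, 9.34 and 8.43 in RHFD against 6.27 to 7.89 in CND (1.53, limma adjusted p = 0.0535). Dclk1, the kinase used to mark tuft cells, had 6.37, 7.38 and 6.46 against 4.71 to 6.16 (1.32, limma adjusted p = 0.0585). Both groups stayed apart for these genes, with RHFD 25B the highest.

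The largest decrease in a named gene was in Aqp8, a water channel of the surface colonocytes (chromosome 1, 187424314 to 187430243). Its levels were 6.07, 8.32 and 5.15 in RHFD 21B, 25B and 3A, against 9.01, 10.75 and 12.56 as the lowest, median and highest in CND. Even the highest RHFD sample lay below all CND samples, and the difference of -4.10 was 17.1-fold lower (5.01 to 58.6, limma adjusted p = 0.0199). Slc14a2, a urea transporter, had levels of 4.52, 4.55 and 4.49 in RHFD, where no array detected it, against 5.02, 6.17 and 6.43 in CND, at least 2.27-fold lower (limma adjusted p = 0.00839). Aqp8 missed the threshold without RHFD 3A (adjusted p = 0.172) or RHFD 21B (0.0944), and Slc14a2 without RHFD 3A (0.0532).

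These were the 2 called members among 26 genes of water, salt and acid transport, of which 21 had a negative difference and none rose, with a median of -0.19. Clca4 (-1.41, adjusted p = 0.28) and the sulfate transporter gene Slc26a2 (-1.14, adjusted p = 0.26) had the next largest negative differences in the limma fit without passing. The chloride-bicarbonate exchanger Slc26a3 (0.004) and the carbonic anhydrase genes Car1 (-0.03) and Car4 (-0.04), other products of surface colonocytes, were level. Among 12 absorptive colonocyte markers Aqp8 alone passed, and the median was -0.01.

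Retinoid genes, which carry vitamin A and turn it over, gave 3 decreases among 15 tested. Retsat, retinol saturase, makes dihydroretinol from retinol (chromosome 4, 106211459 to 106220222). Its levels were 9.69, 9.41 and 9.12 in RHFD 21B, 25B and 3A, against 11.61, 12.43 and 12.91 as the lowest, median and highest in CND. The groups were far apart, and the transcript was 7.32-fold lower in RHFD (3.71 to 14.5, limma adjusted p = 0.00494). Rbp2, the cellular retinol carrier of absorptive cells, had 7.48, 7.10 and 6.78 in RHFD against 7.94, 8.93 and 10.34 in CND (3.74-fold lower, 2.35 to 5.96, limma adjusted p = 0.00637). Rbp7, a related carrier, was 2.25-fold lower (1.55 to 3.28, limma adjusted p = 0.0315). Bco1, which cleaves beta-carotene, had a difference of -0.89 (limma adjusted p = 0.0952), and the median of the list was -0.02. Retsat missed the threshold on chip 1 alone (adjusted p = 0.0598). Without RHFD 3A Rbp2 (adjusted p = 0.0593) and Rbp7 (0.219) missed the threshold, and Rbp7 also without RHFD 21B or 25B and without the CND samples 14A, 20A or 36B (0.0507 to 0.0766).

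Fatty acid handling changed in single genes. Fabp4, a fatty acid binding protein best known from fat cells and macrophages, had levels of 5.53, 5.02 and 6.09 in RHFD, against 7.20, 8.07 and 9.22 as the lowest, median and highest in CND. The groups were apart by 1 log2 unit, and it was 6.41-fold lower (2.86 to 14.4, limma adjusted p = 0.0207). The other adipocyte markers did not pass, and Adipoq, adiponectin, had low levels of 4.51 to 4.83 in RHFD and 4.52 to 5.22 in CND. Hadha, the alpha subunit of the mitochondrial trifunctional protein, was 1.56-fold lower (1.31 to 1.85, limma adjusted p = 0.0105) and was the 1 call among 29 genes of fatty acid oxidation, whose median was -0.10. Its partner Hadhb (-0.35, adjusted p = 0.52), the carnitine transferase gene Cpt1a (0.04) and Pdk4 (-0.01) did not pass. Both called genes missed the threshold without RHFD 3A (0.068 and 0.0515) and without RHFD 25B (0.16 and 0.0835), with chip left out of the model (0.0505 and 0.0928), on chip 1 alone (0.144 and 0.115) and on chip 2 alone (0.0515 and 0.0842). Fabp4 also missed it without RHFD 21B (adjusted p = 0.0766), without background correction (0.0724), with the authors' normalized values (0.0728) and without a filter on dim probes (0.088), and Hadha with median scaling (0.193).

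Of 32 genes for drug and xenobiotic metabolism 4 fell and none rose, with a median of -0.19 and 21 negative differences. The calls were 3 neighbouring cytochrome P450 genes of the Cyp2d cluster on chromosome 7, whose enzymes oxidize many drugs, and Ugt1a6, which adds glucuronic acid to phenols. Cyp2d5 had levels of 6.45, 6.88 and 6.41 in RHFD 21B, 25B and 3A, against 7.27, 8.70 and 10.21 as the lowest, median and highest in CND, 4.36-fold lower (2.51 to 7.59, limma adjusted p = 0.00895). Cyp2d1 was 2.91-fold lower (1.84 to 4.61, limma adjusted p = 0.0193). Cyp2d4 was not detected on any RHFD array and was at least 1.32-fold lower (limma adjusted p = 0.0343). Ugt1a6 was 1.71-fold lower (1.37 to 2.14, limma adjusted p = 0.0141). The Cyp2d probes may share targets between these similar genes, which was not tested.

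Gstm5, a glutathione transferase, had 8.72, 8.37 and 8.39 in RHFD against 9.46, 9.66 and 10.37 as the lowest, median and highest in CND. It was 2.49-fold lower (1.90 to 3.26, limma adjusted p = 0.00118) and passed in every alternative setting tried. Gclc, the catalytic subunit of the first enzyme of glutathione synthesis, had 9.88, 8.81 and 8.38 in RHFD 21B, 25B and 3A, against a narrow 10.01 to 10.42 in CND (2.35-fold lower, 1.56 to 3.55, limma adjusted p = 0.0409). It was the 1 call among 19 genes of glutathione and NRF2 targets, whose median was -0.04, and Gclm (-0.001), Nqo1 (-0.006) and Hmox1 (0.19) were level. Of these 6 detoxification genes 5 missed the threshold without RHFD 3A (adjusted p = 0.068 to 0.295), all but Gstm5, and 3 each without RHFD 25B (Cyp2d1, Cyp2d4 and Gclc, 0.0781 to 0.228) and RHFD 21B (Cyp2d1, Cyp2d4 and Ugt1a6, 0.0546 to 0.115). Gclc and Cyp2d4 also missed it without CND 14A or 20A (0.0672 to 0.0867), Gclc without CND 18A (0.0858) and Cyp2d4 without CND 38B (0.0517).

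Further increases were found outside the groups above. Dnase1l3, an enzyme that digests extracellular DNA and is made by dendritic cells and macrophages, had 7.26, 8.08 and 8.53 in RHFD against 4.98, 5.76 and 6.65 in CND (4.43-fold, 2.38 to 8.25, limma adjusted p = 0.0157). Nfil3, a transcription factor that opposes clock output genes, was the 1 call among 12 circadian genes (2.74-fold, 1.83 to 4.10, limma adjusted p = 0.0123). The core clock genes Bmal1 (0.12), Per1 (-0.11) and Nr1d1 (0.07) did not pass. Igfbp7, which binds insulin-like growth factors, rose 2.25-fold (1.67 to 3.04, limma adjusted p = 0.00869), with 2 of 6 CND arrays detecting it. Without RHFD 25B these 3 missed the threshold (adjusted p = 0.064 to 0.0955), Dnase1l3 also without RHFD 3A (0.14) and Nfil3 without RHFD 21B (0.0579). Other called genes were in none of the lists and are not described further. Among them were Sirpa (1.78, limma adjusted p = 0.00374), Laptm5 (1.65, 0.0409) and Coro1a (1.43, 0.0332).

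Further decreases included Maf, a transcription factor, which had 6.17, 6.95 and 6.27 in RHFD against 7.15, 8.82 and 9.35 as the lowest, median and highest in CND (3.78-fold lower, 2.08 to 6.88, limma adjusted p = 0.0269). Dnase1, a secreted enzyme that cuts DNA, was 3.53-fold lower (1.92 to 6.49, limma adjusted p = 0.0413), and Agmat, agmatinase, 1.91-fold (1.50 to 2.42, limma adjusted p = 0.00847). Cgref1, a growth regulator, was 2.56-fold lower (1.71 to 3.81, limma adjusted p = 0.0181) and Sorcs2, a sorting receptor, 2.30-fold (1.63 to 3.24, limma adjusted p = 0.0154). All 5 missed the threshold without RHFD 3A (adjusted p = 0.068 to 0.146), all but Agmat without RHFD 21B (0.0944 to 0.272), and Maf and Dnase1 also without RHFD 25B (0.0652 and 0.0915) and without CND 14A, 20A or 36B (0.0555 to 0.0867), Dnase1 without CND 18A (0.0563). An unnamed probe, ILMN_1368735, was singled out after its value was seen as the largest decrease of all (5.33 ± 0.81 in RHFD, SD, n = 3, and 11.23 ± 1.13 in CND, n = 6; limma adjusted p = 3.87e-05).

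**Figure D4:**
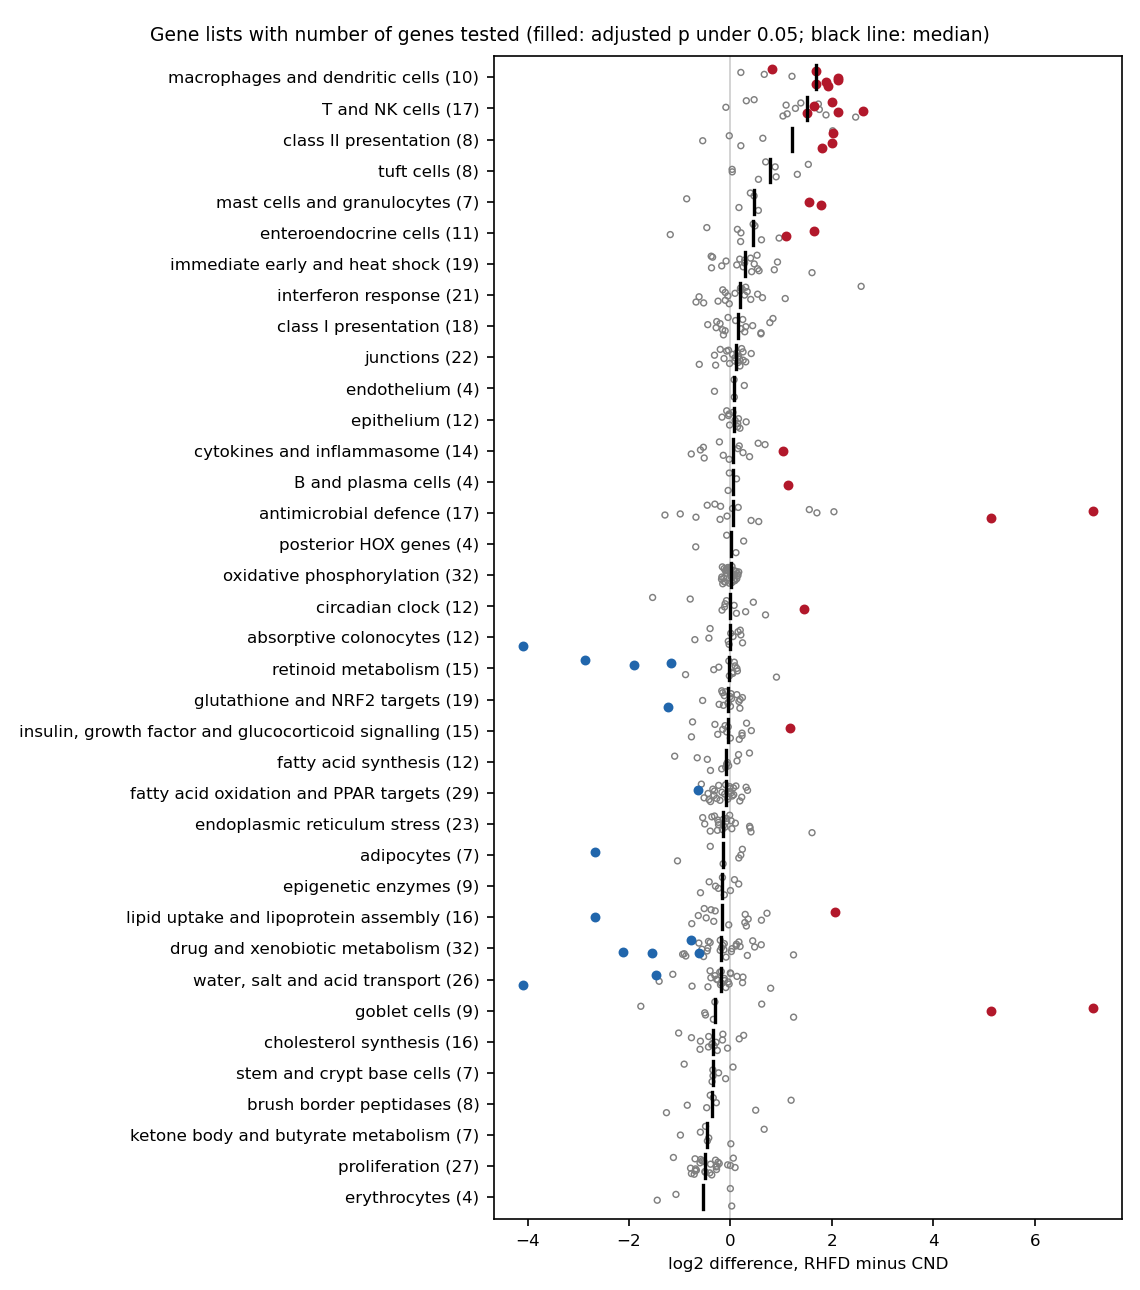
Log2 difference RHFD minus CND of every tested gene in the lists with at least 4 tested members, with filled points for those past an adjusted p of 0.05 and a black line at the median of each list. Macrophage and T cell genes lie to the right with medians of 1.69 and 1.50, oxidative phosphorylation genes are packed around their median of 0.005, and Aqp8, Retsat and Fabp4 stand alone on the left.

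Several large groups had no member past the threshold. All 32 subunits of oxidative phosphorylation, the machinery of mitochondrial respiration, lay between -0.18 and 0.16, with a median of 0.005. None of 22 junction genes passed (median 0.11), and Cldn2, a pore-forming claudin, had the most negative difference at -0.62 (adjusted p = 0.56). Of 23 genes of endoplasmic reticulum stress none passed, with Hspa5, the main chaperone, at -0.08. Among 16 genes of cholesterol synthesis none passed, while 14 had a negative difference and the median was -0.34. Tm7sf2, a sterol reductase, had 6.85, 6.52 and 6.29 in RHFD, all below CND at 7.27 to 7.80 (-1.02, limma adjusted p = 0.0507). None of 9 epigenetic enzymes passed either, and Dnmt1, the maintenance DNA methyltransferase, differed by -0.12.

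Genes of cell division gave 24 negative differences among 27, with a median of -0.50 and none past the threshold. Ube2c, a ubiquitin conjugase of mitosis, had the most negative difference at -1.13 (limma adjusted p = 0.13). The mean log2 level of the list was 6.52 to 6.59 in RHFD against 6.53 to 7.57 in CND. Each RHFD value is the mean of 2 arrays, 1 on each chip, while each CND value is 1 array. The widths of these ranges are therefore not measured alike. The 3 CND samples on chip 1, which carry the letter A, had 7.20 to 7.57 and the 3 on chip 2, which carry B, 6.53 to 6.91, so within CND the chip and the title letter cannot be told apart.

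How far the combined exposure went beyond each exposure alone was asked with the groups that had only one. All of these comparisons share samples, so each is given by its own values. The title letters were spread unevenly: all 6 RND samples carry B, against 3 of 6 CND, 2 of 3 RHFD and 4 of 5 CHFD samples. The labels do not say what the letter means. Differences of RND from CND, and the interaction, therefore cannot be fully told apart from the letter. The interaction is the difference between the combined difference and the sum of the single ones. In limma 0 of 10193 probes passed for it and 420 (4.12%) had an unadjusted p under 0.05, with a smallest adjusted p of 0.942. With the title letter as a covariate 0 passed and 225 had an unadjusted p under 0.05. Between RHFD and CHFD, which differ in birth status, 0 passed and 113 (1.11%) had an unadjusted p under 0.05, with a smallest adjusted p of 0.0798. Between RHFD and RND, which differ in diet, 43 passed (0.422%), 23 higher in RHFD (0.226%) and 20 lower (0.196%), and 982 (9.63%) had an unadjusted p under 0.05. Of the single exposures against CND, CHFD gave 82 higher (0.804%) and 34 lower (0.334%), and RND gave 1, which was higher (0.00981%). An unadjusted p under 0.05 was reached by 1178 probes (11.6%) for CHFD and 1403 (13.8%) for RND. For RHFD against CND it was reached by 930 (9.12%).

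For the secreted products, the differences from CND were 7.78 in RHFD, 7.53 in CHFD and 0.78 in RND for Retnla, and 5.13, 5.12 and 1.09 in the same groups for Itln1. RHFD minus CHFD was 0.26 for Retnla and 0.01 for Itln1, and their interactions were -0.52 (95% interval -2.65 to 1.61) and -1.08 (-3.04 to 0.88). Aqp8 differed from CND by -4.10 in RHFD, -3.86 in CHFD and -1.37 in RND, with an interaction of 1.13 (-1.21 to 3.47). These intervals are wide and do not show that the exposures add up. The medians of the T cell list were 1.50 in RHFD, 1.24 in CHFD and 0.39 in RND, those of the macrophage list 1.69, 1.19 and 0.45, and those of the class II list 1.22, 1.22 and 0.93, each against CND.

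Retsat had another pattern. CHFD samples had levels of 12.13, 12.77, 13.02, 11.97 and 11.72, of which 1 lay above the highest CND sample and none below the lowest, and RND samples had a lowest of 9.59, a median of 12.24 and a highest of 12.52. The only sample outside RHFD in the RHFD range was RND 33B at 9.59. RHFD minus CHFD was -2.92, CHFD minus CND 0.05 and RND minus CND -0.52. The interaction of -2.40 (95% interval -3.69 to -1.11) had an unadjusted p of 0.000971 and did not pass adjustment over all probes.

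Fabp4 had a median of 5.53 in RHFD, 6.84 in CHFD, 9.52 in RND and 8.07 in CND. Its difference from CND was -1.58 in CHFD (limma adjusted p = 0.127) and 1.20 in RND (limma adjusted p = 0.276), neither of which passed, and the samples of both groups overlapped those of CND. Its interaction was -2.31 (-3.84 to -0.77). Apoe, with 4.92 to 5.60 in CHFD and 4.46 to 5.18 in RND, had an interaction of 0.96 (0.10 to 1.82). Only 2 of 6 RND arrays and 1 of 6 CND arrays detected Apoe, so the size of its interaction rests partly on values at background. Of the 95 called probes 8 had an unadjusted interaction p under 0.05, against 420 of all 10193 (4.12%). The calls use RHFD and CND samples that the interaction also uses, so this count is not independent of them. Among the rest of the 8 were Map4k1, a kinase of blood cells (-0.73, -1.42 to -0.03), Itprid1 and Adora2a, an adenosine receptor gene. These genes, Retsat, Fabp4 and Apoe were named for the smallest interaction p among the called genes. That choice favours intervals away from 0. Itprid1 was detected on 6 of 6 RHFD, 2 of 6 CHFD, 0 of 6 RND and 1 of 6 CND arrays. Adora2a was detected on 6, 3, 1 and 0 of 6 in the same order. The size of the interactions of both thus rests on values at background and is not given. The interaction of none of the genes above passed adjustment over all probes. Itprid1 and Adora2a met the detection filter of 6 arrays only through the RHFD arrays, where they are high. Their calls are therefore not independent of that filter. Without a filter on dim probes Itprid1 missed the threshold between RHFD and CND (limma adjusted p = 0.088) and Adora2a did not. Gclc had levels of 9.25 to 10.60 in CHFD and 8.68 to 9.99 in RND, both reaching below the CND range of 10.01 to 10.42, and RHFD minus CHFD was -0.93. Clic2, a chloride channel-like protein, was 0.66 higher in RHFD than in CHFD and 1.07 higher than in RND. None of these differences passed the adjusted threshold between RHFD and CHFD.

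The calls of Adora2a, Itprid1, Map4k1 and Clic2 between RHFD and CND (at least 1.21-fold for Adora2a, and differences of 0.84, 1.20 and 1.20) also missed the threshold when samples were left out. Without RHFD 3A all 4 did (adjusted p = 0.101 to 0.146), without RHFD 25B Itprid1, Adora2a and Map4k1 (0.167 to 0.297), and Itprid1 and Adora2a without RHFD 21B (0.0652 and 0.0546). Of the CND samples, each one ended the call of Itprid1, 18A, 20A and 36B that of Adora2a, and 18A and 20A that of Map4k1 (0.0501 to 0.0749). Adora2a was not detected on any CND array and was at least 1.21-fold higher. Without background correction Itprid1, Map4k1 and Clic2 differed by 0.30, 0.45 and 0.46 (limma adjusted p = 0.0953, 0.106 and 0.0204).

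**Figure D5:**
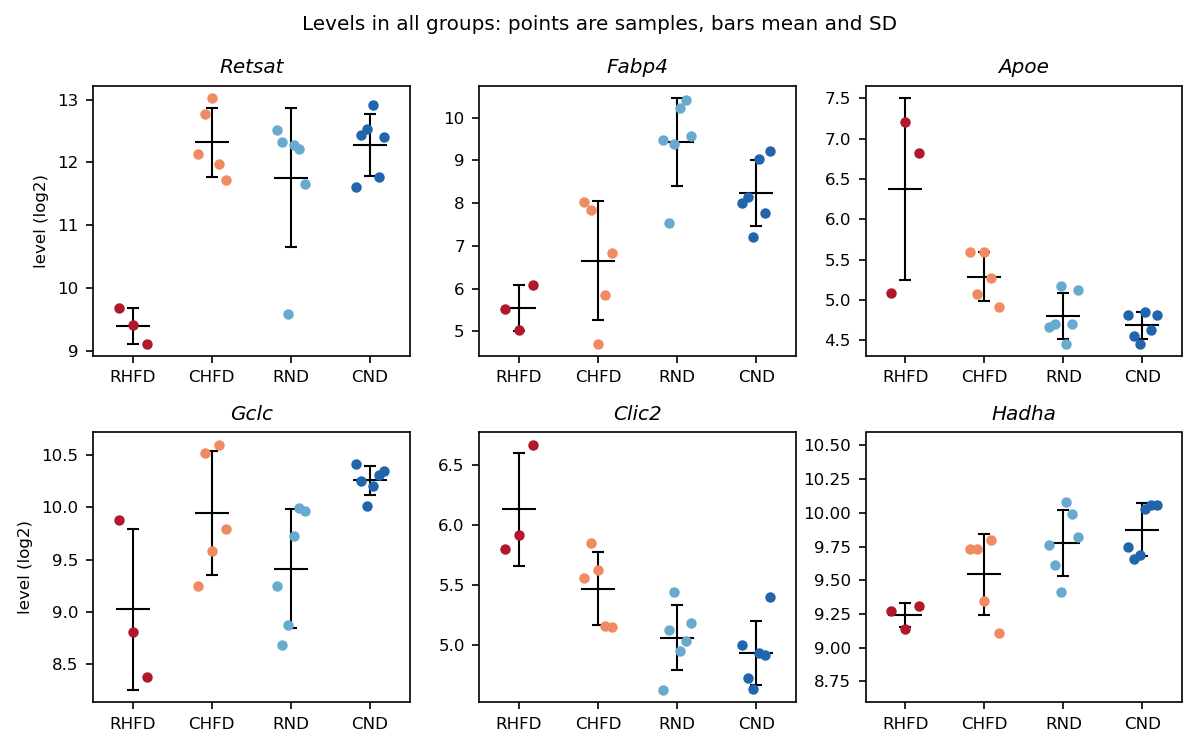
Log2 levels of 6 genes in each sample of the 4 groups (RHFD 3, CHFD 5, RND 6 and CND 6 samples), with bars for the mean and SD. Retsat is at 9.12 to 9.69 in RHFD and at 11.61 or above in every other sample but RND 33B, while for Clic2 and Hadha the CHFD and RND samples reach into the range of CND.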

How the data were processed

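RNA of colonic epithelial cells was hybridised to Illumina rat bead arrays. The deposited intensities are mean bead signals without background subtraction, each with a deposited detection p-value, per the file headers, and were read with GenomeStudio per the submitters' processing notes (version not given in the sources used here). The authors' second table holds intensities that, by their values, were quantile normalized without background subtraction, and served as an alternative. Signals were background-corrected, quantile-normalized and put on a log2 scale with neqc (limma 3.58.1, R 4.3.3, statmod 1.5.0, offset 16). Probes with a detection p under 0.05 on at least 6 of the 24 arrays were kept (10193 of 22523, of which 7483 had 1 gene symbol and 2710 none). The 6 arrays of a single group could meet this rule alone. Arrays with the same title number were averaged. Group and chip were fitted over all 20 samples with limma (15 residual degrees of freedom), with Benjamini-Hochberg adjustment over all probes and a threshold of 0.05. The number of arrays limits the precision.

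Named genes were up to 15 largest changes in each direction among called probes with a symbol, up to 4 called members of each list, up to 6 called genes by interaction p and up to 6 by the larger p against RHFD's single-exposure groups. List members that did not pass could be named with their values. The gene lists and comparisons were chosen with earlier results of these data known. Positions and promoters are from RefSeq (GRCr8), to which 7473 probes were matched. The fitting code was tested on simulated data.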

Additional observations from a re-analysis of the deposited data

Results flagged for a closer look

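In 3 of the 48 sample groups of named genes that were examined, 1 CND sample lay far from the other 5 for the spread of its group, where chance gives about 1 in 20. CND 18A had the lowest RT1-Da level at 7.76, with the nearest CND sample at 9.15. CND 38B had the highest Adora2a level at 4.87, with the nearest at 4.54, and the highest Fev level at 5.40, with the nearest at 4.63.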

How the results depend on the processing

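None of the 48 named genes, all picked for their calls in the main fit of the same samples, changed direction in 20 alternative settings. The medians of 17 of 37 lists took both signs over them, such as class I presentation (-0.15 to 0.48), interferon response (-0.16 to 0.29) and absorptive colonocytes (-0.37 to 0.15), while those of T and NK cells (0.67 to 1.76), macrophages (0.97 to 1.99) and class II presentation (0.82 to 1.55) stayed positive. Of the 48 named genes, 5 passed in all of them (Fcer1g, Gstm5, Pon3, Retnla and Retnlb). With 3 RHFD samples, most other calls depended on single samples: 37 named genes missed the threshold without RHFD 3A, 29 without RHFD 25B and 17 without RHFD 21B. Leaving out 1 sample at a time gave 16 to 77 probes higher, 5 to 33 lower and 24 to 102 in all, and called 0 to 5 T and NK cell genes, 1 to 8 macrophage genes and 0 to 4 class II genes. In those fits 0 or 1 probes passed for RHFD minus CHFD and 0 or 1 for the interaction. Without a filter on dim probes, where 22523 probes were tested, 41 were higher, 14 lower and 55 in all, with 1 T and NK cell gene and 1 class II gene. With arrays fitted singly and the title number as a random block (correlation 0.812), 111 were higher and 143 passed in all, with 10 T and NK cell genes and 1 probe for RHFD minus CHFD. On chip 2 alone 14 were higher, 9 lower and 23 in all, with 3 T and NK cell genes, 1 macrophage gene, 0 class II genes and 1 probe for RHFD minus CHFD. On chip 1 alone the interaction passed for 2 probes. T and NK cell genes called were 2 without background correction, 2 with the authors' normalized values, 3 with median scaling and 10 with RHFD and CND samples only. Class II genes called were 1 without background correction and 1 with the authors' values. The size of the differences of dim genes also depended on the background correction. Without it Klrd1 differed by 0.67 in place of 1.64, Igfbp7 by 0.43 in place of 1.17 and Slc14a2 by -0.56 in place of -1.46. The cause of these shifts was not tested. No paired analysis was possible because the groups share no title numbers.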
